A study of Caenorhabditis elegans with 2 samples.

Results

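The 6 Hox genes of Caenorhabditis elegans, ceh-13, lin-39, mab-5, egl-5, nob-1 and php-3, were examined among 19973 nuclear protein-coding genes for binding of NFYA-1, the A subunit of the transcription factor NF-Y. They were listed by name, and for each gene all peaks were taken whose summit lay in the gene or within 10 kb of either end. Chromatin immunoprecipitation with sequencing (ChIP-seq) had been done on 1 group of 2 biological replicates, whole young adult hermaphrodites of strain OP404 with the genotype unc-119(tm4063) III and the integrated transgene wgIs404. This transgene supplies NFYA-1 with a GFP-FLAG tag at its C-terminal end (the listed genotype names no change in the endogenous nfya-1 gene), and an antibody against GFP was used for the pull-down. Peak lists of these 2 samples are analysed. Both came from this 1 line, no sample without the tag was analysed here, and whole animals mix cells in which a Hox gene is active with cells in which it is silent. The list of each replicate and the list of both pooled held 30000 peaks, a fixed number that reaches into background, so a gene without a listed peak is one without a peak above each list's lowest signal value. These lowest values were 13.5 in the pooled list, 5.52 in replicate 1 and 8.94 in replicate 2, and no source used here gives the scale of the authors' signal value. The read depth is unknown, and with 1 group of 2 samples no test was made, so all values are descriptions.

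Hox genes encode homeodomain transcription factors that give cells their identity along the head-to-tail axis. In the worm, ceh-13 is the labial-like anterior gene, lin-39 acts in the midbody and in vulval precursor cells, and mab-5 acts in the posterior body, where it directs the migration of a neuroblast. The Abdominal-B-like gene egl-5 patterns the tail and is a reported NF-Y target, and the neighbouring genes nob-1 and php-3 are of the same posterior class. NF-Y is a complex of 3 subunits, A, B and C, in which the A subunit reads the sequence CCAAT, the NF-Y box.

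The Hox genes carried few NFYA-1 peaks. The signal of all 3 pooled peaks was below the pooled median of 17.5 and that of all 3 replicate 2 peaks below its median of 11.7, whereas 4 of the 5 replicate 1 peaks were above its median of 7.51. The 6 windows, which cover 128.9 kb of chromosome III once overlaps are counted once, held 3 of the 30000 pooled peaks, 5 peaks of replicate 1 and 3 of replicate 2. This came to 2.33, 3.88 and 2.33 peaks per 100 kb, against 29.9 per 100 kb over all nuclear chromosomes in each list. None of the 6 genes had a peak of the final list, cut by the authors at an irreproducible discovery rate, in its window, where 1.47% of all nuclear protein-coding genes had one. With so low a share, the lack of a final peak does not set these genes apart. The 97 final peaks were sparse, with 8 on chromosome III (13783.8 kb). The nearest lay 573817 bp from the interval between lin-39 and egl-5 and 787485 bp from nob-1 and php-3. Such distances are not given for other genes, so they describe these loci without a comparison.

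In the pooled list, 3 of the 6 Hox genes had a peak in the window, against 91.3% of all nuclear protein-coding genes. In replicate 1 these were 2 of 6, against 92.8%, and in replicate 2 they were 3 of 6, against 91.9%. The genes with a peak were not the same throughout. In the pooled list they were egl-5, nob-1 and php-3, in replicate 1 lin-39 and egl-5, and in replicate 2 lin-39, nob-1 and php-3. Only ceh-13 and mab-5 were without a peak in all 3 lists. The windows of nob-1 and php-3 overlap in most of their length, and both genes were given the same peaks.

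**Figure D1:**
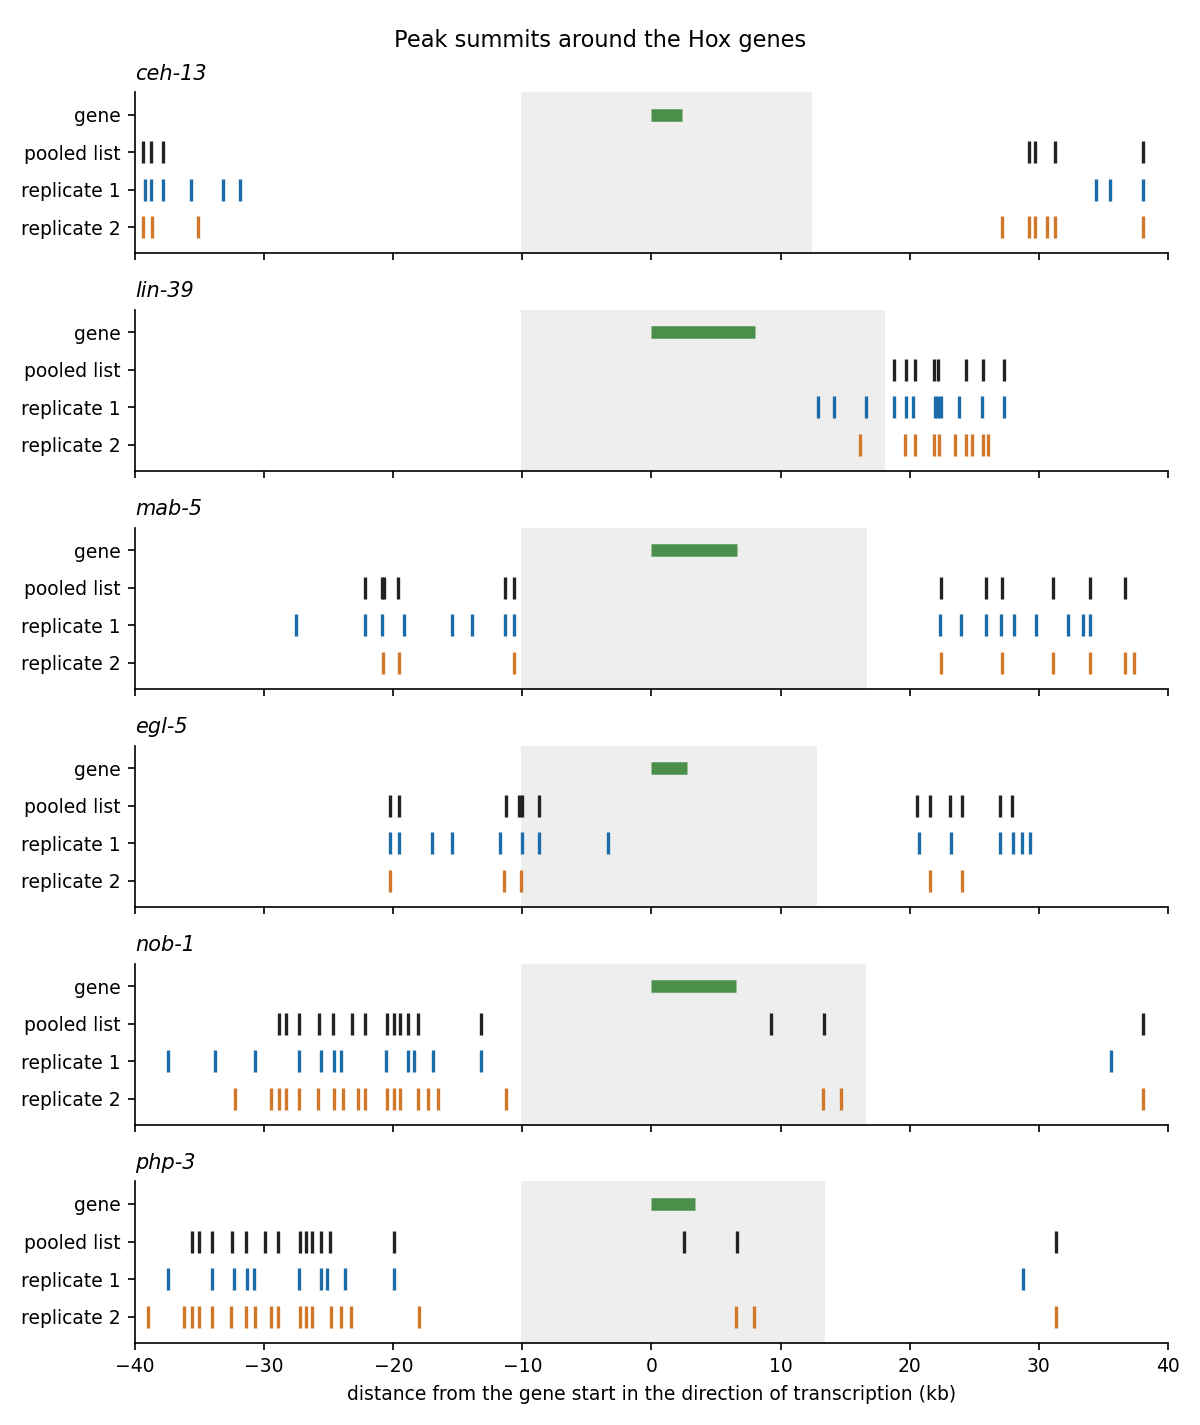
Positions of peak summits (ticks) in the pooled list and in the lists of replicates 1 and 2, in kb from the start of each Hox gene in its direction of transcription; green bars are the genes and grey areas the windows of 10 kb beyond either end. The windows of ceh-13 and mab-5 are empty in all 3 lists, and no tick lies on a gene other than the pooled one in php-3.

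The reported target egl-5 (III 7814374 to 7817141, plus strand, 2768 bp) had 1 pooled peak, 2 peaks in replicate 1 and 0 in replicate 2. All were intergenic and upstream, and none lay in the gene or within 1000 bp of its start. The pooled peak covered III 7805507 to 7805796 with the summit 8722 bp upstream, and it ranked 21448 with a signal value of 15.6, where the median of the list is 17.5. A replicate 1 peak at nearly the same place, 8718 bp upstream, ranked 12426 with a signal of 8.0. No replicate 2 peak overlapped it. The second replicate 1 peak, III 7810868 to 7811177, ranked 11119 with a signal of 8.29 and lay 3351 bp upstream. No peak of the pooled list or of replicate 2 overlapped that one. It was the peak closest to the egl-5 start in any list, and CCAAT stood 14 bp from its summit.

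The sequences around these summits, and around the CCAAT nearest to the egl-5 start, are shown because they are the places where an NF-Y box and a peak could meet at this gene. All are read from the plus strand of ce11, with CCAAT, or ATTGG where the box is on the other strand, in capitals. The first covers chrIII:7810973-7811073, the next chrIII:7805602-7805702 and the last chrIII:7814286-7814310. Of these 3 stretches, only the first holds both a summit and a box.
egl-5 replicate 1 summit, 3351 bp upstream: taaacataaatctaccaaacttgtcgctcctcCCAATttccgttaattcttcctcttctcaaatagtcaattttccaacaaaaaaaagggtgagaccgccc
egl-5 pooled summit, 8722 bp upstream: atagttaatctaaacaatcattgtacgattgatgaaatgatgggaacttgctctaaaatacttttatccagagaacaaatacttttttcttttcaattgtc
egl-5 box near the start: tttccactttCCAATttctattcca

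The box near the egl-5 start begins 78 bp upstream of it, on the strand of the gene, and no list had a peak there. From the pooled summit the nearest CCAAT was 116 bp away. It lay outside the bases shown, but within the bounds of that peak and of the replicate 1 peak that overlaps it.

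The anterior and midbody pair, ceh-13 and lin-39, lies in the longest stretch without pooled peaks among the 6 genes. No pooled summit stood in the 67101 bp that hold both genes, nor any replicate 1 summit in 66320 bp or replicate 2 summit in 62318 bp. For ceh-13 (III 7555660 to 7558041, plus strand, 2382 bp), 1.85% of 4817 genes of like length, meaning a span within 25%, stood in a pooled gap as long or longer. The shares for ceh-13 were 1.43% in replicate 1 and 2.03% in replicate 2. For lin-39 (III 7528641 to 7536632, minus strand, 7992 bp) they were 2.86% in the pooled list, 2.00% in replicate 1 and 2.72% in replicate 2, of 1399 genes of like length. The 2 genes share the gap, so these are not separate observations.

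The window of lin-39 did hold replicate peaks, all downstream of the gene and in coding exons of its neighbours. In replicate 1 the summit at III 7523745 lay in exon 8 of lig-4, which encodes the DNA ligase of end joining, 4896 bp beyond lin-39. With rank 820 and a signal of 13.9 it was by far the highest ranked peak of any Hox window. A further replicate 1 peak in exon 4 of lig-4 ranked 14353 with a signal of 7.62, and 1 in exon 3 of cux-7 ranked 27533 with a signal of 5.80. Replicate 2 had 1 peak in exon 2 of cux-7, 277 bp from the nearest transcript start of that gene, with rank 19373 and a signal of 10.7. None of these 4 peaks was overlapped by a peak of the other replicate or of the pooled list.

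Of these 4 peaks 3 had a box within 50 bp of the summit, and their summit windows are shown for that reason. Capitals mark CCAAT or its complement ATTGG on the plus strand of ce11.
lig-4 exon, replicate 1, chrIII:7523695-7523795: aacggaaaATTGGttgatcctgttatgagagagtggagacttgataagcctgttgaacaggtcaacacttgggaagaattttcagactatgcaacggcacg
cux-7 exon, replicate 1, chrIII:7519944-7520044: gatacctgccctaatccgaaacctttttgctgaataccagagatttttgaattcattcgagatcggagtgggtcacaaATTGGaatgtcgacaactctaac
cux-7 exon, replicate 2, chrIII:7520455-7520555: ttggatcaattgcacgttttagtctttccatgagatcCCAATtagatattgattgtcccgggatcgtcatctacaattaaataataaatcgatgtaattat

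The box stood 38 bp from the summit at lig-4, 28 bp at the replicate 1 summit in cux-7 and 9 bp at the replicate 2 summit there. All 3 summits lie in coding exons of genes other than lin-39.

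The posterior midbody gene mab-5 (III 7776835 to 7783454, minus strand, 6620 bp) was free of peaks throughout its window, as ceh-13 was. Its gap of 33029 bp in the pooled list and in replicate 2, and of 33002 bp in replicate 1, was closer to common. Gaps as long held 16.3% of 1818 genes of like length in the pooled list, 11.9% in replicate 1 and 13.9% in replicate 2. The peak that closes the gap upstream of mab-5 was present in all 3 lists, in a coding exon of cyk-7, with the summit 10633 bp from the gene in the pooled list and replicate 2 and 10649 bp in replicate 1. It ranked 4267 in the pooled list, 8358 in replicate 1 and 9430 in replicate 2.

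The window of nob-1 (III 12077793 to 12084316, minus strand, 6524 bp) and php-3 (III 12074218 to 12077556, minus strand, 3339 bp) held 2 pooled peaks, 0 of replicate 1 and 2 of replicate 2. The pooled summit at III 12075043, in an intron of 792 bp in php-3, was the only summit in any list that lay inside a Hox gene. It ranked 27885 with a signal of 14.0, near the lowest value of the list, and neither replicate had a peak there. The other pooled summit, III 12070966, lay in an intron of 1220 bp of zyg-8, a doublecortin-type kinase gene needed for spindle positioning, 3252 bp downstream of php-3 and 6827 bp downstream of nob-1. It ranked 21972 with a signal of 15.4, and replicate 2 had an overlapping peak at rank 23198. The remaining replicate 2 peak was in exon 7 of zyg-8 at rank 28973.

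The sequences at the 2 pooled summits of the posterior pair, 101 bp each on the plus strand, hold no CCAAT and are shown for comparison with those above.
php-3 intron, chrIII:12074993-12075093: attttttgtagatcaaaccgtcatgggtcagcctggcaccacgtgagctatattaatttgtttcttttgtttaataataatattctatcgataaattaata
zyg-8 intron, chrIII:12070916-12071016: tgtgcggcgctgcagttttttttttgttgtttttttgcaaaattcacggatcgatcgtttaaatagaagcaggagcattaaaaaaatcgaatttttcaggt

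The nearest CCAAT was 428 bp away from the php-3 summit and 97 bp from the zyg-8 summit.

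Support by both replicates was absent. Of the 3 pooled peaks in Hox windows, 0 (exact 95% interval 0 to 70.8%) were overlapped by 1 bp or more in both replicate lists, where 43.8% of all nuclear pooled peaks were. The intergenic peak of egl-5 was overlapped in replicate 1 alone, the zyg-8 intron peak in replicate 2 alone, and the php-3 intron peak in neither. Among the 5 replicate 1 peaks 0 were overlapped by a replicate 2 peak, against 46.7% of all nuclear ones, and among the 3 replicate 2 peaks 0 by a replicate 1 peak, against 46.5%. With so few peaks the intervals are wide. These background shares are over peaks of all ranks. The pooled Hox peaks ranked 21448, 21972 and 27885, and no share for peaks of like rank is given. The lists of both replicates were made with 1 shared further file, which their control-normalized tracks also use, so they are not fully separate.

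CCAAT within 50 bp of the summit was found at 0 of the 3 pooled peaks (exact interval 0 to 70.8%), against 21.7% of all nuclear pooled peaks. It was found at 3 of the 5 replicate 1 peaks (exact interval 14.7 to 94.7%), against 22.1%, and at 1 of the 3 replicate 2 peaks (33.3%, exact interval 0.840 to 90.6%), against 21.5%. Each of these 3 intervals includes its background share. Within 250 bp, 2 of the 3 pooled peaks had a CCAAT, against 70.1%. Summits lay in a coding exon at 0 of 3 pooled peaks, against 46.9% of all nuclear pooled peaks. They did so at 3 of 5 peaks in replicate 1 (exact interval 14.7 to 94.7%), against 44.9% of all nuclear replicate 1 peaks. In replicate 2 it was 2 of 3 (exact interval 9.43 to 99.2%), against 45.8%. Each time the exon belonged to a gene that is no Hox gene, and both intervals include the background share.

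Against genes of like length, the 6 Hox genes all had fewer peaks than the median, in each of the 3 lists. The pooled count was 0 for ceh-13, lin-39 and mab-5, against medians of 7, 8 and 8 (middle 50% of genes 4 to 11, 4 to 12 and 4 to 11). As few as 0 were found for 7.85%, 9.86% and 9.74% of the genes of like length. For egl-5 the count was 1, against a median of 7 over 4393 genes, and 13.2% of these had as few. For nob-1 and php-3 it was 2, against medians of 8 and 7 over 1865 and 3740 genes, with as few in 19.5% and 20%. Empty windows were thus uncommon but not rare among genes of these lengths, and windows of neighbouring genes share peaks, so genes are not independent.

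**Figure D2:**
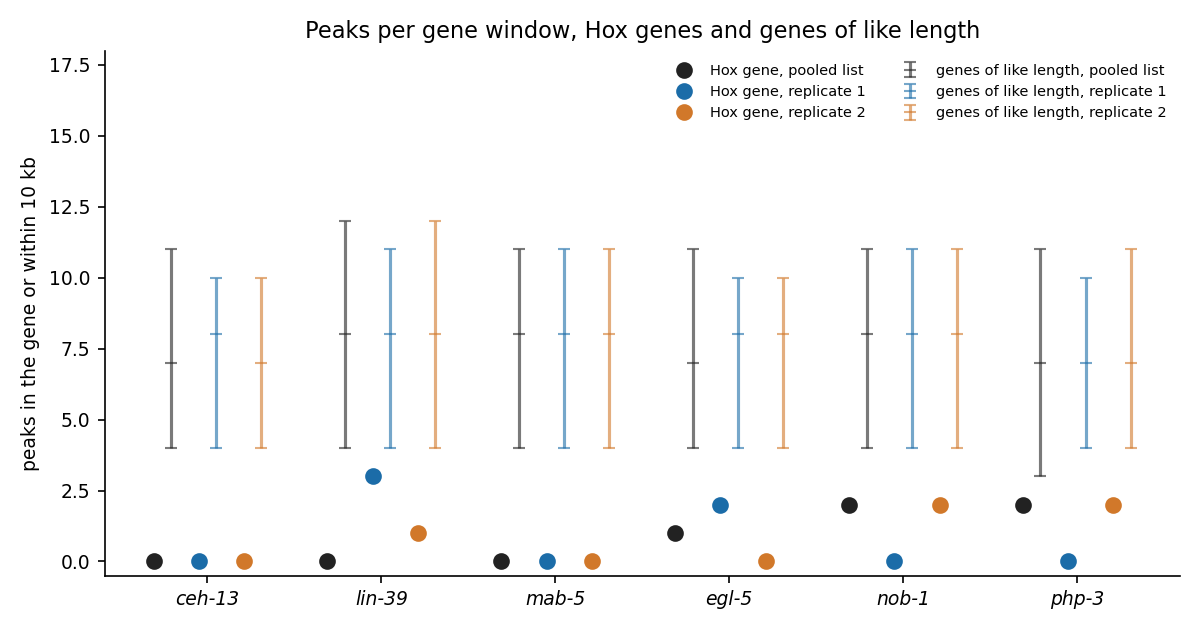
Number of peaks in each Hox gene or within 10 kb of it (points) in 3 lists, beside genes whose span is within 25% (bar at the median, whiskers from the lower to the upper quartile). Every point lies below the lower quartile of its comparison genes.

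In each replicate list too every Hox count was below the median, though the genes with peaks differed between the replicates. In replicate 1, lin-39 had 3 peaks, against a median of 8, and 22.6% of genes of like length had as few. For egl-5 there were 2 peaks in replicate 1, with as few in 16.5%, while the empty windows of ceh-13, mab-5, nob-1 and php-3 were matched by 6.48% to 7.72%. In replicate 2, the counts of 2 for nob-1 and php-3 were matched by 17.5% and 18.4%, the count of 1 for lin-39 by 13.9%, and the empty windows by 7.31% to 8.53%. The pooled counts were below the median also among genes of chromosome III alone, where the shares with as few ran from 13.9% for ceh-13 to 30.2% for php-3.

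The 6 windows had features in common that the choice of genes did not use. Coding sequence took 8.57% of the nob-1 window, 12.1% of that of egl-5, 12.3% of php-3, 12.8% of ceh-13, 17.1% of lin-39 and 17.6% of mab-5, against medians of 23.3% to 29.9% for genes of like length. Pooled counts were lower in windows with less coding sequence over all genes, as the plot of peaks by coding share shows. Beside genes alike in length and within 5 percentage points in coding share, whose median was 6 for ceh-13, egl-5, nob-1 and php-3 and 7 for lin-39 and mab-5, all 6 Hox counts were still lower. As few were then found in 7.62% of such genes for ceh-13, 10.4% for lin-39 and for mab-5, 16.0% for egl-5, 24.4% for php-3 and 31.3% for nob-1. Coding share thus moved with the count, and its part in the result beyond these values was not tested.

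**Figure D3:**
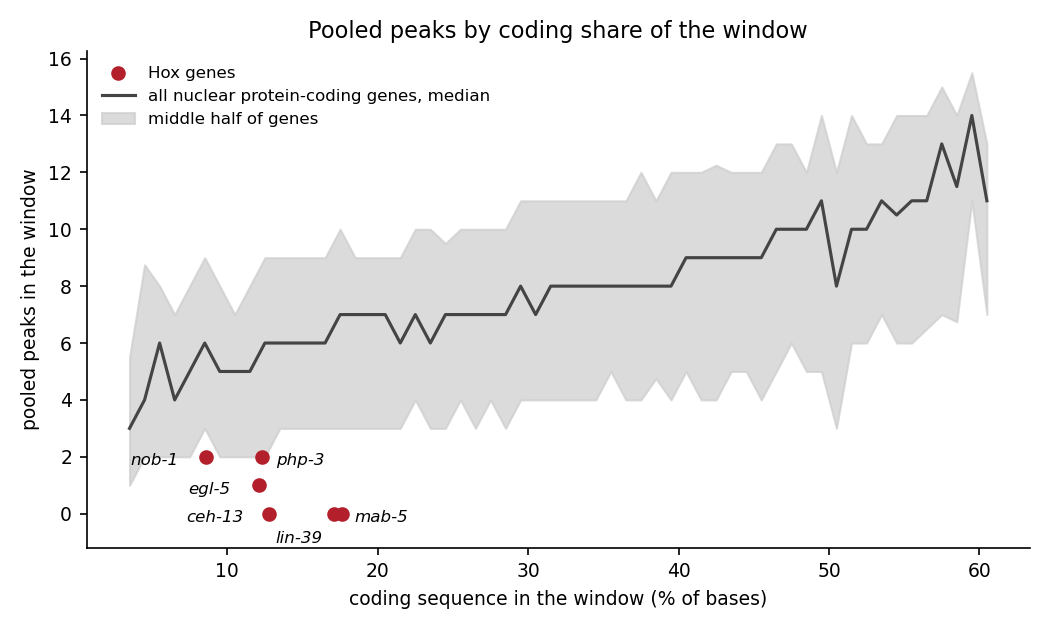
Pooled peaks in the window (vertical axis) by the share of coding bases in it (horizontal axis) for the 6 Hox genes (red points), with the median (line) and the range from the lower to the upper quartile (grey) of all nuclear protein-coding genes. The Hox genes lie at low coding shares and below the median there.

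Bases that the RefSeq genome file gives in lower case, its mark for repeats and simple sequence, made up 53.8% of the nob-1 window and 56.8% of the php-3 window, against 32.7% and 30.4% in the median gene of like length. In the other 4 windows they were 26.7% to 36.2%, against 29.9% to 33.7%. Beside genes alike in length and within 5 percentage points in this share, a comparison added after the data were seen, 29.2% of 209 genes had as few pooled peaks as nob-1 and 31.1% of 196 as few as php-3, against 19.5% and 20% by length alone. Both counts were still below the median there. The part of repeats beyond these values was not tested. GC content was 32.9% for ceh-13 and 34.5% to 36.1% for the other 5, against 35.5% in each comparison.

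NF-Y boxes themselves were about as frequent as around other genes. The windows held from 18.4 CCAAT per 10 kb at mab-5 to 25.9 at egl-5, on both strands together, against medians of 23.7 to 24.5. In the 1000 bp upstream of the start, each of the 6 genes had at least 1 CCAAT, as did 87.8% of all protein-coding genes, so this is common. There were 3 at ceh-13 and at lin-39, 2 at mab-5 and at nob-1, and 1 at egl-5 and at php-3, and the median gene had 2. A longer box, CCAAT followed by C or G and then by A or G, searched on both strands, was present upstream of ceh-13 (2 matches), lin-39 (1) and mab-5 (1) and absent upstream of the 3 posterior genes, and 30.3% of all genes had at least 1.

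Boxes upstream of the starts are shown for the genes other than egl-5, 1 each, the one closest to the start, with 10 bases on either side and on the strand of the gene. None lies under a peak of any list, and a match of letters does not show a site.
ceh-13, chrIII:7555231-7555255, 419 bp upstream: tttgcaaaaaCCAATtgttagcttg
lin-39, chrIII:7536745-7536769, 127 bp upstream: agtgggggagATTGGagaagaagca
mab-5, chrIII:7784318-7784342, 878 bp upstream: tacgggactcATTGGatactttata
nob-1, chrIII:12084802-12084826, 500 bp upstream: aaattattttATTGGtgcttaaggt
php-3, chrIII:12077810-12077834, 268 bp upstream: ttttttttcaATTGGcaaggcaccc

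Capitals again mark the box, CCAAT where it reads along the gene and ATTGG where it reads against it. Only the box of ceh-13 runs in the direction of its gene, as that of egl-5 does.

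None of the 6 Hox genes had a pooled peak at its start, meaning within the 1000 bp before or the 200 bp after a transcript start, where 33.8% of all protein-coding genes had one. The stricter count, a pooled peak at the start that both replicates overlap, was 0 of 6, against 16.2%. With only 6 genes, 0 is little different from a share of 16.2%, and no interval was computed for either count.

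The width of the window decided how much was counted. Within 2 kb of the gene the Hox loci held 1 pooled peak in all, and within 5 kb they held 2. Low counts were then common also among genes of like length, with as few in 25.4% for lin-39 to 39.4% for php-3 at 2 kb and in 16.8% to 34.3% for the same genes at 5 kb. For the genes alone these shares ran from 30.7% for lin-39 to 64.3% for php-3, whose 1 peak equalled the median. At 20 kb ceh-13 still had 0 peaks in every list, as few as 1.89% of genes of like length in the pooled list, while lin-39 had 8, egl-5 and nob-1 had 7, mab-5 had 5 and php-3 had 3. As few were found in 26.6% of genes of like length for lin-39, 21.8% for nob-1, 20.1% for egl-5, 13.6% for mab-5 and 7.57% for php-3. At 50 kb the pooled counts were 12 at mab-5, 13 at egl-5, 15 at ceh-13 and 17 at lin-39, nob-1 and php-3, against medians of 30 to 32. All 6 were below the lower quartile at 10 kb and at 50 kb. At 20 kb lin-39 was at it, and at 5 kb nob-1 was at it and php-3 above it. At 2 kb and for the genes alone the lower quartile was 0 for each comparison, so no count could be below it.

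**Figure D4:**
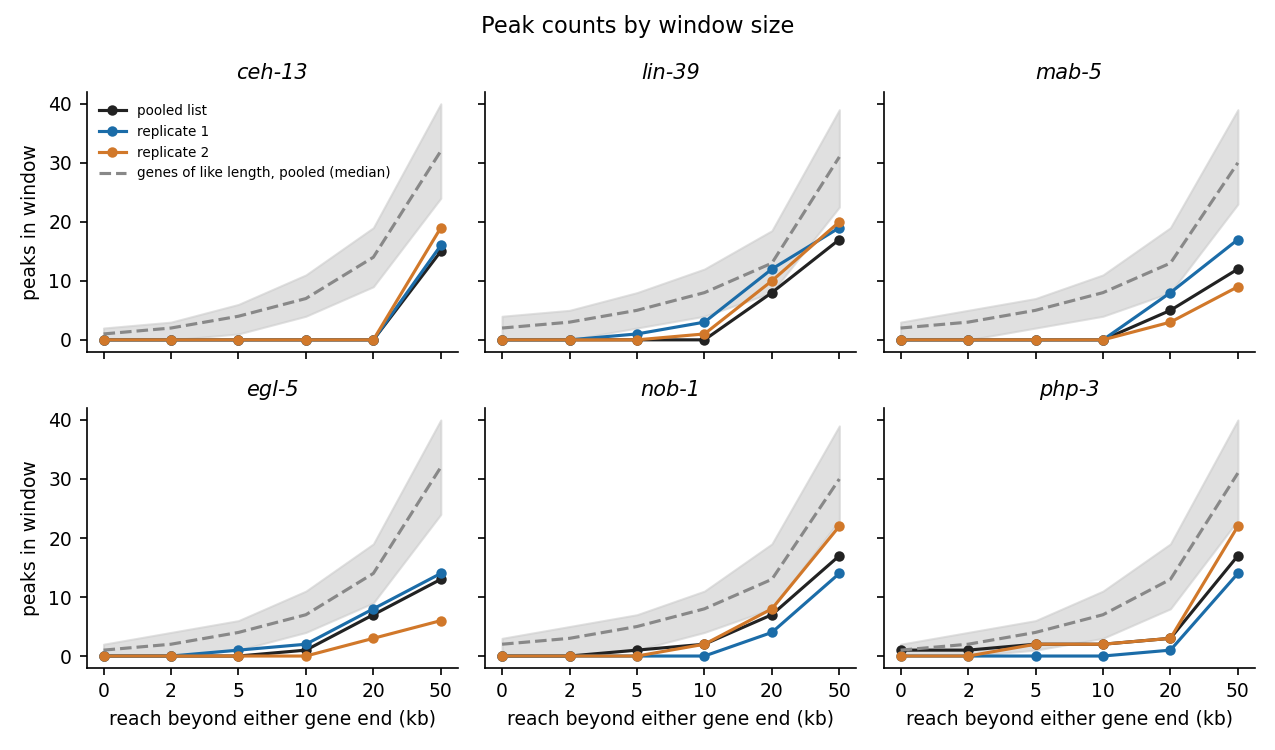
Peaks counted around each Hox gene (points joined by lines, 3 lists) as the window grows from the gene alone to 50 kb beyond either end; the dashed line and grey area are the median and the quartiles of pooled counts for genes of like length. The count of ceh-13 stays at 0 up to 20 kb in every list, and all 6 pooled counts are below the grey area at 10 kb and 50 kb.

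Peaks just beyond 10 kb show how sharp this edge was. Upstream of egl-5, a pooled summit stood 10030 bp away with rank 29915 and a signal of 13.5, and each replicate had a summit nearby, at 10064 bp in replicate 1 (rank 13636) and 10132 bp in replicate 2 (rank 10882). Higher ranked pooled summits followed at 10232 bp (rank 6806) and 11258 bp (rank 8847). Downstream of lin-39 the next pooled summit was 10793 bp away in a coding exon of clk-2, at rank 19389. Upstream of nob-1 the next pooled summit was 13173 bp away at rank 20031, and replicate 1 had one at 13177 bp that ranked 799 with a signal of 13.9. These, cyk-7 included, were chosen after their values were seen, as peaks close outside a window.

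Between the 2 ends of the cluster, peaks were not missing. The 198.8 kb from the window of ceh-13 to that of mab-5, with 30 protein-coding genes, held 47 pooled peaks, 23.6 per 100 kb. The interval of 49.4 kb around lin-39 and ceh-13 held 0 pooled peaks, 3 of replicate 1 and 1 of replicate 2. That of 60.3 kb around mab-5 and egl-5 held 6 pooled peaks (9.95 per 100 kb), 8 of replicate 1 and 3 of replicate 2, and that of 30.1 kb around php-3 and nob-1 held 2 pooled peaks (6.64 per 100 kb), 0 of replicate 1 and 2 of replicate 2. Chromosome III as a whole held 26 pooled peaks per 100 kb, fewer than the 29.9 over all nuclear chromosomes. Coding sequence took 15.5%, 13.7% and 9.52% of the 3 Hox intervals, against 30.7% of the stretch between the windows of ceh-13 and mab-5 and 25.7% of the chromosome.

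Other genes of Hox control were uneven in the same measure. Among the 4 genes for cofactors that bind DNA with Hox proteins, 1 had a pooled peak in its window, against the 91.3% given above. This was ceh-40, a Pbx-type gene, with 11 peaks, and the Pbx-type genes ceh-20 and ceh-60 and the Meis-type gene unc-62 had 0. Of 11 regulators of Hox expression 7 had a pooled peak, and the Polycomb-like gene sop-2, its partner sor-1, the trithorax-group gene lin-59 and egl-27, related to a subunit of a histone deacetylase complex, had 0. All 7 genes of the Wnt pathway, which acts upstream of mab-5 and lin-39, had pooled peaks, from 2 at mig-5, a Dishevelled gene, to 16 at pop-1, the TCF factor. Of the 4 NF-Y subunit genes 3 had them, and nfya-1 had 0. The median count was 0 for the cofactors, 5 for the regulators, 8 for the Wnt genes, 8 for the NF-Y genes and 0.5 for the Hox genes, with spans that differ between genes.

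At gene starts, peaks with support from both replicates were found for 1 cofactor, 0 regulators, 1 Wnt gene and 1 NF-Y gene, against the 16.2% of all genes. At ceh-40 the summit stood 32 bp upstream of the start, with rank 1605 in the pooled list, 2690 in replicate 1 and 4488 in replicate 2. At the Frizzled receptor gene lin-17 it stood 82 bp downstream, in a coding exon, at rank 8593, with ranks of 4134 and 17682 in replicates 1 and 2. At nfyc-1, the gene for the C subunit, it stood 480 bp upstream within a coding exon of the proteasome gene rpt-4, with ranks of 1082, 1437 and 16833 in the pooled list, replicate 1 and replicate 2. The lin-17 and nfyc-1 summits had CCAAT 22 bp and 15 bp away, and that of ceh-40 had none within 50 bp. All 3 ranked above every pooled peak of the Hox windows. They were picked for overlap in both replicates, which no pooled Hox peak had, so the ranks are not a like comparison.

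The genes whose counts were most like those of each Hox gene, by the summed difference over the 3 lists, all matched exactly. For the empty windows such matches were plentiful, 237 genes for ceh-13, or 4.92% of its genes of like length, and 108 for mab-5, or 5.94%. The closest in span were pdi-2, a protein disulfide isomerase gene, and C46F11.4. For lin-39 with 0, 3 and 1 peaks in the pooled list, replicate 1 and replicate 2, only 3 genes matched, with smk-1 closest. For egl-5 with 1, 2 and 0 peaks there were 6, with fbxa-16 closest, for nob-1 with 2, 0 and 2 peaks there were 2, with W02H5.2 closest, and for php-3 there were 8, with czw-1 closest. Likeness in 3 counts is a loose measure, and 2 of the lists feed the pooled one.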

How the data were processed

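Per the deposited descriptions of the files, the authors called peaks on each replicate and on both pooled, with 1 further file that the replicates share and that also enters their control-normalized tracks (not analysed here), and thresholded a final list with the irreproducible discovery rate. Per the labels, the builds were ce10 and ce11. No source used here names the aligner or the peak caller. Each deposited peak has a signal value by the authors, used only to rank peaks within a list (rank 1 is the highest, and equal values share a rank). The depth is unknown, so intervals cover the counting of peaks only. The 4 lists on ce11 were used, and the ce10 lists were left out.

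Genes are those of Ensembl release 115 for WBcel235, the assembly of ce11, and bases come from the RefSeq genome of the same assembly. Summits were placed by the first that applied of coding exon, untranslated exon, intron of a protein-coding gene, noncoding exon and intergenic. CCAAT was sought on both strands, lying wholly within the stated distance of the summit. Intervals are exact Clopper-Pearson at 95%. Because 3 of the 6 pooled counts were 0, the share of genes with as few peaks was given, in place of the planned share with as many. No test was run, since the design is 1 group of 2 samples. The computations gave the planted answers on data with known answers.

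The members, the gene lists and the alternatives were chosen with earlier results of these data known. Beside the 6 Hox genes, the rule named genes that hold a summit in a Hox window, list genes with a supported peak at the start, and the gene of like length with the most similar counts. Grouping and replicate numbers are those of the labels. The software was matplotlib 3.10.9 for plots and pandas 2.3.3, scipy 1.17.1 and numpy 2.4.6 under Python 3.11.15.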

Additional observations from a re-analysis of the deposited data

How the results depend on the processing

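The 6 Hox counts stayed below the median of genes of like length under 11 of the 12 alternatives tried. For the genes alone 5 of 6 did, and php-3 equalled it. These were pooled counts, except in the 2 alternatives that took the list of 1 replicate alone. The alternatives changed the tolerance in span, the chromosome, the coding share, GC content or soft-masked share of the comparison genes, the window or the list. The 3 pooled peaks became 2 at 5 kb and 1 at 2 kb or within the genes alone, and 0 among the 10000 highest pooled peaks. Without replicate 1 and without replicate 2, in the lists of the other replicate alone, there were 3 and 5. Peaks with CCAAT, 0 in the pooled list, numbered 2 within 250 bp, and 1 and 3 in the lists without replicate 1 and without replicate 2. Peaks in coding exons numbered 2 and 3 there, and the best rank of 21448 became 19373 and 820. The rank of 820 rests on the lig-4 peak of replicate 1. The share of genes of like length with as few peaks ranged from 1.89% to 44.5% for ceh-13 and from 7.38% to 64.3% for php-3 over all alternatives. The genes alone in that comparison, windows of 20 kb and 50 kb, GC content and soft-masked share were added after the data were seen. No paired analysis was possible because the samples form 1 group. Counts of 0 to 5 peaks limit every share, and the fixed length of the lists sets the weakest peak that could be counted.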
